A study of Homo sapiens with 8 samples.

Results

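Genes of serine, one-carbon and asparagine synthesis, 10 in all, were followed through 8 RNA-seq libraries of MDA-MB-231, a human triple-negative breast cancer line. The genes were chosen by symbol and make up 10 of the 19583 rows of the deposited table. They are PHGDH, PSAT1 and PSPH of serine synthesis, SHMT2, MTHFD2, MTHFD1L and ALDH1L2 of mitochondrial one-carbon metabolism, SHMT1 and MTHFD1 of the cytosolic arm, and ASNS, which makes asparagine. The 4 groups of 2 libraries were cells labelled shCHD4 at 1% O2, cells labelled shCHD4 at 20% O2, cells labelled shSC at 1% O2 and cells labelled shSC at 20% O2. The O2 level was held for 24 hours, all cells were of this 1 line in DMEM with serum, and all carried a hairpin label. The shCHD4 samples are labelled as a knockdown of CHD4, the ATPase of the NuRD chromatin remodelling complex.

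Serine is made from the glycolytic intermediate 3-phosphoglycerate in a chain of 3 enzymes, PHGDH, PSAT1 and PSPH. The SHMT enzymes pass a carbon from serine to tetrahydrofolate, and the MTHFD enzymes interconvert the resulting one-carbon units, which feed purine, thymidylate and methionine synthesis. Mitochondria export these units as formate. Many of these genes, with ASNS, are known targets of ATF4, a transcription factor of the amino acid and stress responses, and low O2 is known to act through the HIF factors.

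The letters of 2 promoters are shown because they hold the ATF4 response motif that background knowledge ties to this gene group. RefSeq promoter windows (build GRCh38.p14, 250 bases before to 50 after a start) existed for 7 of the 10 genes. The motif TGATGNAA, searched on both strands, was in the windows of ASNS and MTHFD1L, 2 of 7 genes, and in 3.63% of 34796 distinct windows. Gene counts in this paragraph take a match in any window of a gene, while the percentages are of single windows. ASNS and MTHFD1L have more than 1 window each, so the counts and percentages are not like for like. The first stretch lies at chr7:97872439-97872506 on the minus strand and its motif begins 68 bases upstream of the ASNS start. The second lies at chr6:150866346-150866375 on the plus strand, 129 bases upstream of 1 MTHFD1L start, and is transcribed from another. Capitals mark the TGATGNAA match and, in ASNS, the GTTACA element, which stood in 6.68% of windows and in no other of the 7 genes.
ASNS: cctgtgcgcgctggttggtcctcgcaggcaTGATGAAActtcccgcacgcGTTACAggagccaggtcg
MTHFD1L: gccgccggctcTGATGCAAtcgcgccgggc
The capitals do not overlap each other. The hypoxia core ACGTG or GCGTG, on either strand and with overlapping matches allowed, was in windows of ASNS, MTHFD1, MTHFD1L, MTHFD2 and PSAT1, 5 of 7, against 48.4% of all windows. A match describes the letters and is not a measured binding site.

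Values are normalised read counts, that is, reads over a single scaling factor for each library without any correction for gene length, so levels are compared between libraries and not between genes. The libraries held 24947627 to 31903585 reads. Differences are log2 differences of value + 0.5, tested with limma over all genes and called at a Benjamini-Hochberg adjusted p under 0.05, and an alternative is another processing setting or a library left out. CHD4 had 299.1 and 286.9 counts in shCHD4 cells at 1% O2 and 293.4 and 304.6 at 20% O2, against 279.7 and 278.2 in shSC cells at 1% O2 and 298.9 and 298.2 at 20% O2. CHD4 mRNA was therefore not lower in the libraries labelled shCHD4 (log2 difference 0.071 at 1% O2, limma adjusted p = 0.129, and 0.0018 at 20% O2, adjusted p = 0.968), and it passed as higher after quantile normalisation or after centring each gene on its chromosomal neighbours. Label differences below are differences between the libraries with these labels. The hypoxia target CA9, a carbonic anhydrase, was higher at 1% O2 under both labels, by 2.93 on the log2 scale in shCHD4 cells and 5.09 in shSC cells, and NDRG1 by 3.24 and 3.90. At 20% O2 CA9 had only 5 reads in shCHD4 cells and 18 in shSC cells, summed over 2 libraries. The added 0.5 therefore limits the size of both CA9 differences, and they do not measure how the labels differ in their response. The 8 markers of this mesenchymal-like line summed to 9021 to 10689 counts in the shCHD4 libraries and 7466 to 10270 in the shSC libraries, with VIM contributing the most. Between labels 3 of the 8 were higher and 4 lower in shCHD4 cells at 1% O2, and 4 and 4 at 20% O2, among them CAV1 (1.08 at 1% O2 and 0.89 at 20% O2), CD44 (-0.80 and -0.79) and FOSL1 (-0.91 and -0.74), picked after their values were seen. SPARC was low throughout, at 363 reads in shCHD4 cells against 31 in shSC cells at 1% O2, and 352 against 23 at 20% O2, summed over 2 libraries. The 7 luminal and epithelial markers summed to 14.3 to 17.0 in the shCHD4 libraries and 22.3 to 27.3 in the shSC libraries, and the 3 of them that were tested were lower in shCHD4 cells at both O2 levels. Another 5 markers of immune, endothelial and stromal cells summed to 34.0 to 39.4 in the shCHD4 libraries and 25.3 to 27.6 in the shSC libraries. Most of these sums at 1% O2 was COL1A1, which averaged 32.4 counts in shCHD4 cells and 22.4 in shSC cells. The part of these marker differences in the results was not tested.

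The label separated most of these genes by a wide margin at both O2 levels. PSAT1, PSPH, SHMT2, MTHFD2 and ASNS were more than 2-fold lower in shCHD4 cells than in shSC cells, SHMT1 was more than 2-fold higher, PHGDH and MTHFD1L were lower by less, and MTHFD1 did not pass the test. Of the 9 genes tested, 1 was higher and 7 lower at 1% O2, where 77.4% of all 12645 tested genes passed (38.2% higher and 39.2% lower). The counts were again 1 and 7 at 20% O2, where 75.6% passed (37% higher and 38.6% lower). The call alone therefore sets these genes little apart from the rest. Past a 2-fold difference the counts were 1 higher and 5 lower at each O2 level. Of all genes 5.67% were that much higher and 8.56% that much lower at 1% O2, and 4.93% and 8.07% at 20% O2. The median log2 difference was -1.03 at 1% O2 and -1.35 at 20% O2, where all genes had medians of -0.0067 and -0.0091. In bulk RNA, fewer cells of a kind and less RNA per cell cannot be told apart.

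**Figure D1:**
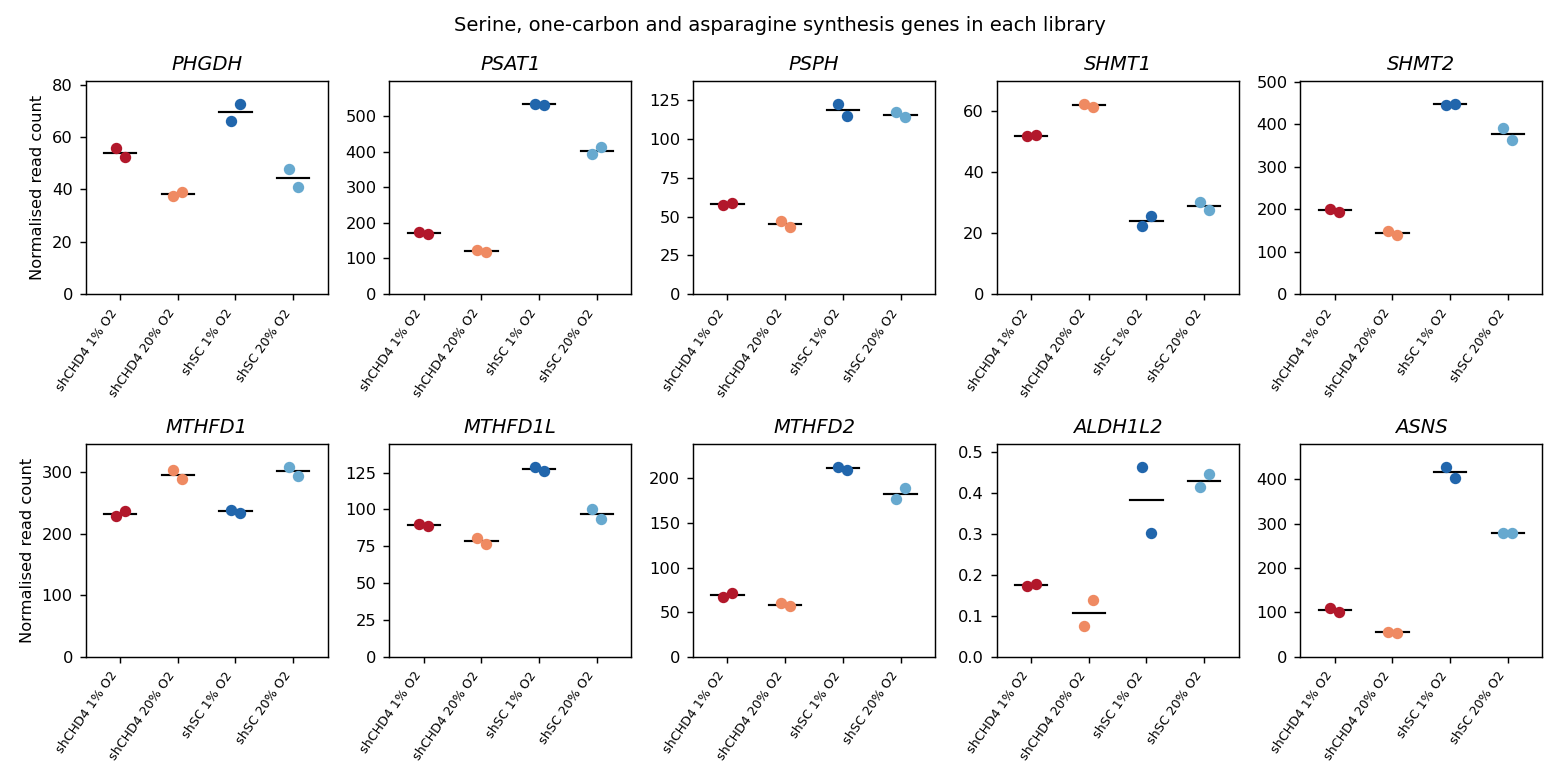
Normalised read counts of the 10 genes in each of the 8 libraries, grouped by hairpin label and O2 level; points are single libraries and lines are group means. ASNS has 100.8 and 108.8 counts in shCHD4 cells at 1% O2, below the 278.0 and 279.0 of shSC cells at 20% O2.

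PHGDH, the dehydrogenase that begins serine synthesis, had 55.9 and 52.3 counts in shCHD4 cells at 1% O2 and 37.5 and 39.0 at 20% O2, against 66.3 and 72.8 in shSC cells at 1% O2 and 47.7 and 40.7 at 20% O2. Both 1% O2 libraries of each label lay above both 20% O2 libraries, and the 1% O2 libraries of shCHD4 cells lay above the 20% O2 libraries of shSC cells. The label difference was -0.36 at 1% O2 and -0.20 at 20% O2 (limma adjusted p = 0.000154 and 0.015). The call at 20% O2 ended without shSC replicate 1 (-0.089, adjusted p = 0.262) or shCHD4 replicate 1 (adjusted p = 0.0877), under quantile normalisation (-0.14, adjusted p = 0.0832), with no filter on low values (0.0558) or with no variance trend (0.066). At 1% against 20% O2 PHGDH rose by 0.49 in shCHD4 cells (adjusted p = 7.2e-05) and 0.65 in shSC cells (adjusted p = 1.45e-06).

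PSAT1, the aminotransferase of the second step, had 173.7 and 169.6 counts in shCHD4 cells at 1% O2 and 124.1 and 118.0 at 20% O2. In shSC cells it had 535.3 and 533.1 at 1% O2 and 394.2 and 412.4 at 20% O2. Every shCHD4 library lay below every shSC library, and within each label the 1% O2 libraries were the higher ones. PSAT1 was 3.32-fold lower in shCHD4 cells than in shSC cells at 20% O2 (log2 difference -1.73 ± 0.043 SE, limma adjusted p = 7.57e-17) and lower, with -1.64 at 1% O2 (adjusted p = 1.78e-16). The 40 genes nearest to PSAT1 on chromosome 9 had median label differences of -0.36 at 1% O2 and -0.41 at 20% O2. With each library centred on those neighbours PSAT1 differed by -1.28 and -1.32. Low O2 raised PSAT1 by 0.50 in shCHD4 cells and 0.41 in shSC cells (adjusted p = 1.18e-07 and 1.19e-06).

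PSPH, the phosphatase that releases serine, had 57.4 and 58.5 counts in shCHD4 cells at 1% O2 and 46.9 and 43.4 at 20% O2, against 122.8 and 114.7 in shSC cells at 1% O2 and 117.3 and 114.0 at 20% O2. The 1% and 20% O2 libraries did not overlap in shCHD4 cells and overlapped in shSC cells. PSPH was lower in shCHD4 cells, with -1.03 at 1% O2 and -1.35, or 2.55-fold, at 20% O2 (limma adjusted p = 3.64e-12 and 7.29e-14). It rose at 1% O2 by 0.36 in shCHD4 cells (adjusted p = 0.000116) and did not pass in shSC cells (0.037, 95% interval -0.075 to 0.15, adjusted p = 0.622).

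In mitochondria, SHMT2, which splits serine into glycine and a one-carbon unit, had 199.3 and 194.2 counts in shCHD4 cells at 1% O2 and 148.2 and 139.9 at 20% O2. In shSC cells SHMT2 had 445.8 and 448.1 at 1% O2 and 390.6 and 363.5 at 20% O2. The labels did not overlap, nor did the O2 levels within a label. SHMT2 was 2.61-fold lower in shCHD4 cells at 20% O2 (-1.38, limma adjusted p = 4.72e-15) and lower, with -1.18 at 1% O2 (adjusted p = 4.96e-14). It rose at 1% O2 by 0.45 in shCHD4 cells (adjusted p = 1.19e-06) and 0.25 in shSC cells (adjusted p = 0.000452).

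MTHFD2, the mitochondrial dehydrogenase and cyclohydrolase, had 67.1 and 71.3 counts in shCHD4 cells at 1% O2 and 60.0 and 56.7 at 20% O2, against 213.4 and 209.5 in shSC cells at 1% O2 and 177.2 and 189.0 at 20% O2. All shCHD4 libraries were far below all shSC libraries, and the O2 levels were apart by much less. The label difference was -1.61 at 1% O2 and -1.64, or 3.12-fold, at 20% O2 (limma adjusted p = 2.26e-15 and 1.73e-15). The rise at 1% O2 was 0.24 in shCHD4 cells (adjusted p = 0.0022) and 0.21 in shSC cells (adjusted p = 0.00395), and the call in shCHD4 cells ended without 1% O2 replicate 2 (adjusted p = 0.0528). Its paralog MTHFD2L was higher in shCHD4 cells, by 0.34 at 1% O2 and 0.31 at 20% O2 (adjusted p = 0.0071 and 0.0124). Its O2 differences of 0.016 in shCHD4 cells and -0.011 in shSC cells did not pass (adjusted p = 0.93 and 0.949). The label calls of MTHFD2L ended by DESeq2 on recovered reads (adjusted p = 0.0528 at 1% O2 and 0.0795 at 20% O2), at 1% O2 without shCHD4 replicate 2 (0.0734) and at 20% O2 without shSC replicate 1 (0.0824).

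MTHFD1L, which releases formate in mitochondria, had 90.2 and 88.6 counts in shCHD4 cells at 1% O2 and 80.5 and 76.6 at 20% O2, against 129.1 and 126.0 in shSC cells at 1% O2 and 100.3 and 93.6 at 20% O2. Its shCHD4 libraries at 1% O2 lay just under its shSC libraries at 20% O2. MTHFD1L was lower in shCHD4 cells, with -0.51 at 1% O2 and -0.30 at 20% O2 (limma adjusted p = 2.97e-08 and 2.56e-05), and at -0.41 and -0.16 when centred on its neighbours. It rose at 1% O2 by 0.19 in shCHD4 cells (adjusted p = 0.0129) and 0.39 in shSC cells (adjusted p = 9.1e-06). The call in shCHD4 cells ended without 1% O2 replicate 1 (adjusted p = 0.111), without 1% O2 replicate 2 (0.0626), without 20% O2 replicate 2 (0.115) or with no variance trend (0.0649).

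ALDH1L2, which oxidises formyl-tetrahydrofolate to carbon dioxide in mitochondria, was close to the detection limit, with 5 and 5 reads in shCHD4 cells at 1% O2, 2 and 4 at 20% O2, 13 and 9 in shSC cells at 1% O2 and 10 and 12 at 20% O2. It fell below the minimum mean of 1 normalised count. Without that filter it was lower in shCHD4 cells, with -0.38 at 1% O2 and -0.62 at 20% O2 (limma adjusted p = 0.0113 and 0.000811). Its gene overlaps C12orf45 on the opposite strand, which had 162 to 251 reads per library, and no source used here states whether counting used strand.

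In the cytosol, SHMT1, the counterpart of SHMT2, ran the other way between labels. It had 51.8 and 51.9 counts in shCHD4 cells at 1% O2 and 62.2 and 61.3 at 20% O2, against 22.4 and 25.4 in shSC cells at 1% O2 and 30.0 and 27.4 at 20% O2. All shCHD4 libraries were above all shSC libraries, while within each label the 1% O2 libraries were the lower ones. SHMT1 was higher in shCHD4 cells by 1.11 at 1% O2 and 1.09, or 2.13-fold, at 20% O2 (limma adjusted p = 3.18e-11 and 4.06e-11). The 40 nearest genes on chromosome 17 were also higher, with medians of 0.59 and 0.56, and centred on them SHMT1 differed by 0.56 and 0.53 and still passed.

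At 1% O2 SHMT1 fell by 0.25 in shCHD4 cells (limma adjusted p = 0.0126) and by 0.26 in shSC cells (adjusted p = 0.00549). The shCHD4 call ended without 1% O2 replicate 1 (adjusted p = 0.0813), 1% O2 replicate 2 (0.0747) or 20% O2 replicate 1 (0.0876), with no filter on low values (0.0505) or with no variance trend (0.0593), and the shSC call without 1% O2 replicate 1 (0.0986) or 20% O2 replicate 1 (0.0533). SHMT1 overlaps SMCR8 on the opposite strand, which had 124 to 129 counts in shCHD4 libraries and 103 to 106 in shSC libraries.

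MTHFD1, the cytosolic enzyme with 3 activities on the one-carbon unit, had 228.0 and 236.9 counts in shCHD4 cells at 1% O2 and 302.5 and 288.0 at 20% O2, against 237.9 and 234.1 in shSC cells at 1% O2 and 308.8 and 293.1 at 20% O2. The labels overlapped at both O2 levels, and all 4 libraries at 1% O2 were below all 4 at 20% O2. MTHFD1 fell at 1% O2 by 0.34 in shCHD4 cells and by 0.35 in shSC cells (limma adjusted p = 2.19e-05 and 9.2e-06). The label difference did not pass, at -0.022 for 1% O2 (95% interval -0.115 to 0.0715) and -0.027 for 20% O2 (-0.121 to 0.0659).

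ASNS, the glutamine-dependent asparagine synthetase whose promoter is shown above, had 108.8 and 100.8 counts in shCHD4 cells at 1% O2 and 56.6 and 54.3 at 20% O2. In shSC cells ASNS had 428.8 and 403.8 at 1% O2 and 279.0 and 278.0 at 20% O2. Low O2 and the shSC label each went with more ASNS, with no overlap in any pair of groups. ASNS was 4.99-fold lower in shCHD4 cells than in shSC cells at 20% O2 (log2 difference -2.32 ± 0.049 SE, limma adjusted p = 5.9e-18) and 3.96-fold lower at 1% O2 (-1.98, adjusted p = 5.85e-17). Low O2 raised it by 0.91, or 1.88-fold, in shCHD4 cells (adjusted p = 1.18e-10) and by 0.58 in shSC cells (adjusted p = 5.92e-08). Neighbours of ASNS on chromosome 7 had a median label difference of 0.21 at each O2 level.

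**Figure D2:**
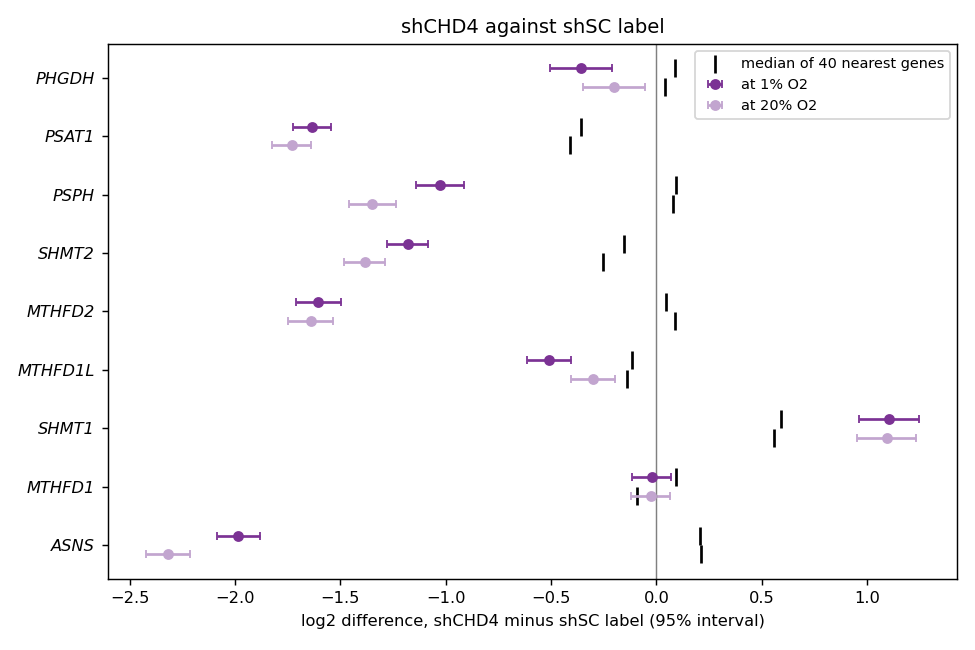
Log2 difference of each tested gene between shCHD4 and shSC libraries at 1% and at 20% O2, with 95% intervals, and the median of its 40 nearest genes as a vertical tick. ASNS lies lowest at -1.98 and -2.32, the MTHFD1 intervals include 0, and SHMT1 lies at 1.11 and 1.09 with its neighbours at 0.59 and 0.56.

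At 1% O2 PHGDH, PSAT1, SHMT2, MTHFD2, MTHFD1L and ASNS rose under both labels, the cytosolic SHMT1 and MTHFD1 fell under both, PSPH rose in shCHD4 cells and did not pass in shSC cells, and ALDH1L2 was not among the tested genes. In shCHD4 cells 7 of the 9 tested genes rose and 2 fell, where 23% of all tested genes passed (12.3% higher and 10.7% lower), and the median log2 difference was 0.36 against -0.0037 for all genes. In shSC cells 6 rose and 2 fell, where 35.2% of all genes passed (17.4% higher and 17.9% lower), and the median was 0.25 against -0.011. None of the 9 changed by 2-fold or more under either label, as 0.506% of all genes did in shCHD4 cells and 0.941% in shSC cells.

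**Figure D3:**
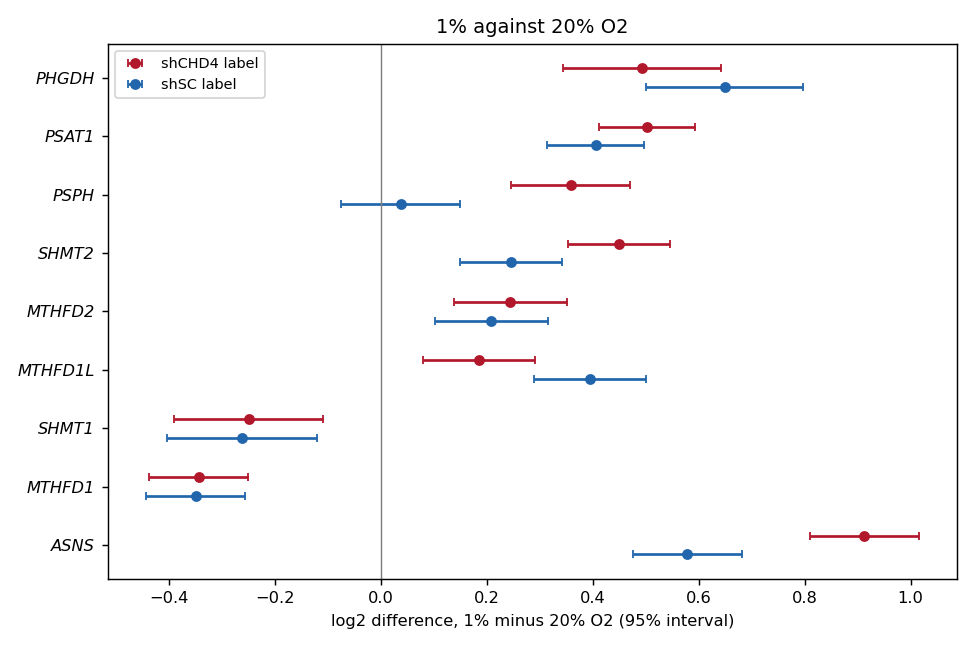
Log2 difference of each tested gene between 1% and 20% O2 in shCHD4 and in shSC cells, with 95% intervals. SHMT1 and MTHFD1 lie below 0 under both labels, and ASNS is highest in shCHD4 cells at 0.91.

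The O2 effect itself differed between labels for 2 of the 9 genes, where 4.36% of all genes passed, 2.21% with a more positive effect in shCHD4 cells. The effect of 1% O2 in shCHD4 cells minus that in shSC cells was 0.33 for ASNS (limma adjusted p = 0.00879) and 0.32 for PSPH (adjusted p = 0.0204). Neither call held with no filter on low values (adjusted p = 0.0722 for ASNS and 0.0898 for PSPH), with no variance trend (0.116 and 0.126) or without shCHD4 1% O2 replicate 1 (0.077 and 0.0671). PSPH also lost its call without shCHD4 1% O2 replicate 2 (0.102), shSC 1% O2 replicate 2 (0.0791) or shCHD4 20% O2 replicate 2 (0.104). The difference did not pass for SHMT2 (0.20, adjusted p = 0.0859) or MTHFD1L (-0.21, adjusted p = 0.107), and each passed without 1 shSC library at 20% O2, replicate 2 for SHMT2 (0.0347) and replicate 1 for MTHFD1L (0.0309).

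Genes around these enzymes gave mixed counts. Of 20 genes of the ATF4 pathway and its targets, all tested, 5 were higher and 14 lower in shCHD4 cells at 1% O2, and 5 higher and 15 lower at 20% O2, with 12 lower by more than 2-fold each time and medians of -1.41 and -1.75. Of all genes 77.4% passed at 1% O2 and 75.6% at 20% O2, and 8.56% and 8.07% were lower by more than 2-fold. The list mixes regulators of ATF4 with its targets, and several regulators had higher means in shCHD4 than in shSC cells at 1% O2. These were EIF2AK1 (165.5 against 102.0 counts), EIF2AK2 (80.0 against 66.3), EIF2AK3 (35.9 against 26.3) and EIF2S1 (245.6 against 206.5), while EIF2AK4 was lower (100.1 against 132.0). Outside these regulators not every gene was lower in shCHD4 cells. SLC7A5 averaged 1529.0 counts against 1423.9 in shSC cells at 1% O2, and 1072.5 against 1157.1 at 20% O2. ATF5 averaged 34.3 against 33.1 at 1% O2 and 39.5 against 30.5 at 20% O2. The stress gene TRIB3 averaged 23.4 ± 1.42 counts in shCHD4 cells and 324.8 ± 3.31 in shSC cells at 1% O2 (SD, n = 2 each; log2 difference -3.77). SESN2, a repressor of mTORC1 signalling, was lower, with -3.85 at 1% O2 and -3.98 at 20% O2. ATF3 and CEBPB were lower, with -3.63 and -2.05 at 1% O2, and DDIT4 and CHAC1 with -3.94 and -3.89 at 20% O2. ATF4 itself, named after its values were seen, averaged 217.4 ± 4.20 counts in shCHD4 cells and 453.9 ± 8.22 in shSC cells at 1% O2 (-1.06, limma adjusted p = 9.21e-14).

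With 1% O2, 9 of these 20 genes rose and 3 fell in shCHD4 cells, led by DDIT4 (2.49), VLDLR (1.71), the amino acid transporter SLC7A5 (0.51) and CHAC1 (0.86), and 8 rose and 2 fell in shSC cells, led by VLDLR (0.58), SLC7A5 (0.30), EIF2AK2 (-0.34) and CEBPG (0.28). Of all genes 23% passed in shCHD4 cells and 35.2% in shSC cells, and the shSC count of 10 was 6 without shSC 1% O2 replicate 1. ATF4 rose by 0.12 in shCHD4 cells (limma adjusted p = 0.0446) and 0.11 in shSC cells (adjusted p = 0.0484), calls that ended under 10 and 12 alternatives. The O2 effect differed between labels for 5 of the 20. The fold at 1% O2 in shCHD4 cells over that in shSC cells was 4.76 for DDIT4, 2.18 for VLDLR, 2.02 for CHAC1 and 1.34 for the cystine transporter SLC7A11, the last losing its call under 8 alternatives. ATF5, named after its values were seen, went the other way (log2 difference of effects -0.32, limma adjusted p = 0.0422), and its call ended under 11 alternatives.

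**Figure D4:**
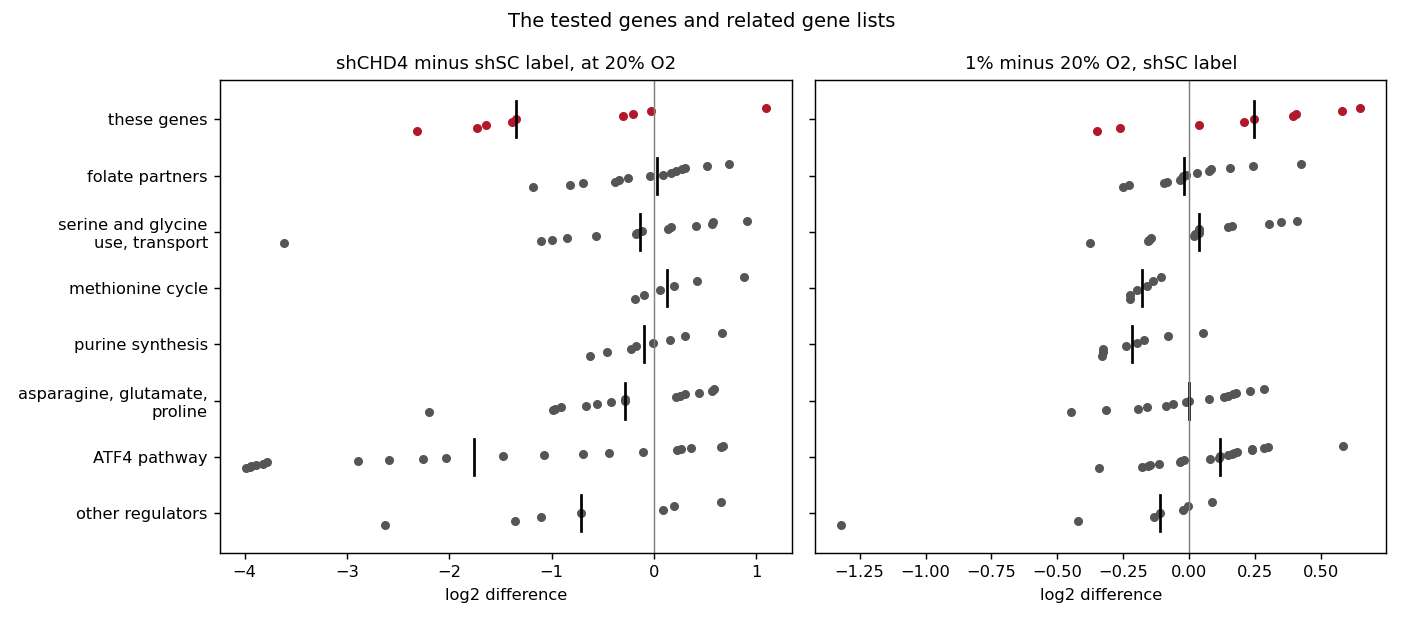
Log2 differences of the tested genes of each list between shCHD4 and shSC cells at 20% O2 (left) and between 1% and 20% O2 in shSC cells (right); points are genes and vertical lines are list medians. The ATF4 list has a median of -1.75 on the left and 0.12 on the right.

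Of 14 tested genes of serine transport and use, 5 were higher and 6 lower in shCHD4 cells at each O2 level, with medians of -0.15 at 1% O2 and -0.14 at 20% O2. That share is close to the 77.4% and 75.6% of all genes that passed. CTH, which makes cysteine from cystathionine, averaged 16.1 ± 0.311 counts in shCHD4 cells and 179.9 ± 14.9 in shSC cells at 1% O2 (-3.44), and was 12.2-fold lower at 20% O2. The transporters SLC1A5 and SLC1A4 were lower, with -1.11 and -0.85 at 20% O2, and SPTLC2 of sphingolipid synthesis at -0.99. Other genes had higher means in shCHD4 than in shSC cells. GCSH averaged 32.1 against 15.7 counts at 1% O2 and 39.0 against 20.5 at 20% O2. PTDSS1 averaged 170.2 against 115.6 and SFXN1 98.1 against 60.1 at 1% O2. With 1% O2, 6 rose and 2 fell in shCHD4 cells (median -0.027), and 4 rose and 4 fell in shSC cells (median 0.036), where 23% and 35.2% of all genes passed. Without single libraries of the label compared these counts of 8 were as low as 1 (shCHD4 1% O2 replicate 1) and 2 (shCHD4 20% O2 replicate 1) in shCHD4 cells, and 4 without either other shCHD4 library. In shSC cells the count was 5 without either 1% O2 library or without 20% O2 replicate 1. SLC1A4 rose by 0.43 in shCHD4 cells and 0.41 in shSC cells, and in the same order SLC1A5 by 0.17 and 0.30, while GCSH of the glycine cleavage system fell by 0.28 and by 0.38. In shCHD4 cells the calls of SLC1A5 and GCSH ended under 3 and 2 alternatives. PTDSS1 in shCHD4 cells (-0.16) and DLD in shSC cells (-0.16) passed with calls that ended under 4 and 3 alternatives.

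Of 14 tested folate genes, 4 were higher and 6 lower in shCHD4 cells at 1% O2, and 6 and 5 at 20% O2, with medians of 0.011 and 0.026, where 77.4% and 75.6% of all genes passed. FPGS, which adds glutamates to folate, was lower in shCHD4 cells, with -1.01 at 1% O2 and -0.82 at 20% O2. In the same order of O2 levels, the opposing hydrolase GGH was higher by 0.80 and 0.74, the mitochondrial folate carrier SLC25A32 lower, at -0.60 and -0.69, and ALDH1L1, the cytosolic paralog of ALDH1L2, lower, at -1.32 and -1.19. With 1% O2, 1 rose and 4 fell in shCHD4 cells (median -0.0065), and 3 rose and 1 fell in shSC cells (median -0.018), where 23% and 35.2% of all genes passed. The shCHD4 count of 5 was 1 without replicate 1 of either O2 level and 3 without replicate 2 of either, and the shSC count of 4 was 1 without 1% O2 replicate 1. Thymidylate synthase TYMS fell by 0.31 in shCHD4 cells and by 0.23 in shSC cells. The other calls named here ended under 3 to 8 alternatives: MTR (0.18), SLC46A1 (-0.37) and MTHFS (-0.36) in shCHD4 cells, and MTR (0.15) and ALDH1L1 (0.42) in shSC cells.

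Purine synthesis genes, all 8 tested, fell at 1% O2 in 6 cases under each label and rose in none, with medians of -0.21 in shCHD4 cells and -0.22 in shSC cells. Of all genes 10.7% fell in shCHD4 cells and 17.9% in shSC cells. PFAS fell by 0.26 in shCHD4 cells and by 0.33 in shSC cells, and under the same labels PPAT fell by 0.27 and by 0.33, ADSL by 0.26 and by 0.24. ATIC fell by 0.23 in shCHD4 cells and PRPS1 by 0.33 in shSC cells. Between labels 2 were higher and 4 lower at 1% O2, and 3 and 4 at 20% O2 (medians -0.12 and -0.093), where 77.4% and 75.6% of all genes passed. GART was lower in shCHD4 cells, with -0.72 at 1% O2 and -0.62 at 20% O2. At those O2 levels PRPS2 was higher by 0.80 and 0.66, and PFAS higher by 0.38 and 0.30, its call at 20% O2 ending under 1 alternative. PRPS1 was lower, at -0.30 and -0.46, and this turned to 0.25 and 0.16 when centred on its neighbours.

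Of 6 tested methionine cycle genes, 0 rose and 1 fell at 1% O2 in shCHD4 cells and 0 rose and 6 fell in shSC cells, with medians of -0.071 and -0.18, where 10.7% and 17.9% of all genes fell. The shCHD4 count was 0 without replicate 1 of either O2 level. The shSC count was 2 without either shSC 1% O2 library or without shSC 20% O2 replicate 2, and 3 without either shCHD4 1% O2 library. AHCY fell by 0.19 in shCHD4 cells, and in shSC cells AHCYL1 fell by 0.22, AMD1 by 0.20, AHCYL2 by 0.22 and AHCY by 0.14. All of these calls but that of AHCYL1 ended under 3 to 9 alternatives. Between labels 4 were higher and 0 lower at 1% O2, and 3 and 1 at 20% O2 (medians 0.17 and 0.13), where 77.4% and 75.6% of all genes passed. AHCYL2 was higher in shCHD4 cells by 1.04 at 1% O2 and 0.88 at 20% O2. At those O2 levels MAT2A, which makes S-adenosylmethionine, was higher by 0.50 and 0.42. AHCY was higher by 0.14 and 0.20 and turned to -0.048 and -0.036 when centred on its neighbours, AHCYL1 was higher by 0.20 at 1% O2 and MAT2B lower, with -0.18 at 20% O2. That centring ended the AHCY call at both O2 levels (limma adjusted p = 0.369 and 0.501), and the label calls of AHCYL1 at 1% O2, AHCY at 1% O2 and MAT2B at 20% O2 ended under 1, 3 and 4 other alternatives.

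Of 15 tested genes of asparagine, aspartate, glutamine and proline metabolism, 5 were higher and 9 lower in shCHD4 cells at 1% O2, and 6 and 9 at 20% O2, with medians of -0.14 and -0.28, where 77.4% and 75.6% of all genes passed. Glutamine synthetase GLUL averaged 11.0 ± 0.178 counts in shCHD4 cells and 42.7 ± 2.54 in shSC cells at 1% O2 (-1.90), and differed by -2.19 at 20% O2. At 1% and 20% O2 PYCR1 of proline synthesis was lower, at -1.07 and -0.96, and the transaminases GOT1 at -1.22 and -0.91 and GPT2 at -0.76 and -0.98. The transaminase GOT2 had higher means in shCHD4 than in shSC cells, 206.7 against 133.9 counts at 1% O2 and 251.6 against 166.8 at 20% O2. ALDH18A1 of proline synthesis was also higher, at 152.5 against 111.8 at 1% O2. With 1% O2, 5 rose and 2 fell in shCHD4 cells, led by GPT2 (0.39), GOT2 (-0.28), GLUL (0.42) and NARS (0.21), and 4 rose and 3 fell in shSC cells, led by GOT2 (-0.32), PYCR1 (0.28), AGA (0.23) and ASNSD1 (-0.16). Of all genes 23% and 35.2% passed, and both counts of 7 were 3 without a single library, shCHD4 1% O2 replicate 2 or 20% O2 replicate 1 in shCHD4 cells and shSC 1% O2 replicate 1 in shSC cells. The calls of NARS, AGA and ASNSD1 ended under 4, 2 and 5 alternatives. GOT1 alone differed in its O2 effect (-0.31), a call that ended under 9.

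Of 7 tested regulators, 2 were higher and 4 lower in shCHD4 cells at each O2 level, with medians of -0.94 at 1% O2 and -0.71 at 20% O2, where 77.4% and 75.6% of all genes passed. MYC averaged 124.7 ± 1.70 counts in shCHD4 cells and 653.8 ± 2.38 in shSC cells at 1% O2 (-2.39), and was 6.20-fold lower at 20% O2. At 1% and 20% O2 EPAS1 was lower, at -1.48 and -1.35, and NFE2L2 at -0.97 and -1.10, and HIF1A was lower, with -0.94 at 1% O2. With 1% O2, 1 rose and 2 fell in shCHD4 cells and 0 rose and 3 fell in shSC cells, where 23% and 35.2% of all genes passed, and the shCHD4 count of 3 was 5 without either shSC 20% O2 library. HIF1A mRNA fell by 1.55 in shCHD4 cells and by 1.32 in shSC cells and EPAS1 by 0.54 and by 0.42. NFE2L2 in shCHD4 cells (0.12), MYC in shSC cells (-0.13) and the difference in the O2 effect of MYC (0.25) passed with calls that ended under 9, 5 and 8 alternatives.

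Likeness of pattern was measured as Pearson's r of log2 values over the 8 libraries among 9629 genes with a mean of at least 10. The libraries and the 4 groups are shared by all genes, so r follows the group differences. The genes most like PHGDH were ZNF75A (0.989), TUBGCP2 (0.987) and PPME1 (0.986). Those most like PSAT1 were BTG1 (0.999), RGMB (0.998) and ITPR1 (0.998), and those most like ASNS were TXNIP (0.999), FAM107B (0.999) and ERRFI1 (0.998).

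Gene copies named as pseudogenes of these genes are annotated for PSAT1 (4), PSPH (1), SHMT1 (1), MTHFD1 (1), MTHFD2 (7) and ASNS (4), and reads shared with such copies could have been counted either way. Of the other opposite-strand partners, only some were looked up. ZBTB25 at MTHFD1 had 4.53 to 7.35 counts per library, SLC4A5 at MTHFD2 0.370 to 1.06 and NDUFA4L2 at SHMT2 0 to 3 reads. Further overlapping genes, on the same or the opposite strand, are annotated at ASNS, MTHFD1L, MTHFD1, MTHFD2, SHMT1 and SHMT2. Their levels were not looked up.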

How the data were processed

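The authors deposited 1 table of polyadenylated RNA for 8 libraries, whose values are a signal proportional to reads: within 0.01 reads, 100% of values per library were whole multiples of 1 step, although the table is named as FPKM. Per the submitters' processing notes the tools were bcl2fastq 2.17, FastQC 0.11.2, TopHat, Picard 1.127, featureCounts and edgeR on hg19. No source used here gives the annotation or strand setting. Division by that step gave back whole reads.

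Genes with a mean of at least 1 (12645, of them 9 of the 10 followed) went into 1 fit of the 4 groups with limma 3.58.1 (R 4.3.3), on log2(value + 0.5) values, with a variance trend, two-sided, with Benjamini-Hochberg adjustment over all genes at 0.05. Adjusted p-values in the text are from this fit unless another setting is named. Fold changes are on that scale and understate low genes. The design named limma, or the edgeR quasi-likelihood test if the table held raw counts. The table held scaled reads, so limma was kept and edgeR was run on the recovered reads as an alternative. Alternatives were other pseudocounts, filters, scalings, centring on 40 neighbouring genes, a replicate block, each library left out, and edgeR 4.0.16 and DESeq2 1.42.0 on recovered reads. The code was tested on simulated data.

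The genes and lists were chosen with earlier results of these data known. Named are all 10 genes, CHD4, CA9, NDRG1, the paralogs MTHFD2L and ALDH1L1, up to 4 called genes of each list with the smallest p per comparison, and the 3 genes most like PHGDH, PSAT1 and ASNS. ATF4, ATF5, the named markers and, between labels, EIF2AK1, EIF2AK2, EIF2AK3, EIF2AK4 and EIF2S1 were added after their values were seen. So were the label values of SLC7A5, GCSH, PTDSS1, SFXN1, GOT2 and ALDH18A1. Some genes that the rule picks are not reported here by name. Nothing states that replicates were separate cultures, so the p-values reflect library-to-library spread only, possibly technical. Of the table's rows 27 had names turned into dates. The comparisons share 1 spread estimate per gene, and an O2 and a label comparison share libraries.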

Additional observations from a re-analysis of the deposited data

Results flagged for a closer look

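The effect of 1% against 20% O2 differed between labels for 2 genes, by the test of the difference itself. For ASNS the effect in shCHD4 cells minus that in shSC cells was 0.334521 on the log2 scale (limma, adjusted p = 0.00879; adjusted p from 0.00268 to 0.116 over the alternatives). For PSPH it was 0.320584 (adjusted p = 0.0204; 0.0177 to 0.126 over the alternatives). In both genes the 1% O2 libraries lay above the 20% O2 libraries in shCHD4 cells, and in shSC cells they did so for ASNS and overlapped for PSPH. CHD4 mRNA was not lower in the shCHD4 libraries, and the cause of the difference was not tested.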

How the results depend on the processing

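Calls of the 9 tested genes kept counts of 7 to 8 for O2 in shSC cells, 6 to 9 for O2 in shCHD4 cells, 7 to 8 between labels at 20% O2 and 8 at 1% O2 when single libraries were left out. The interaction count of 2 became 0 with no filter on low values, 0 with no variance trend and 0 to 3 with libraries left out. Over all genes the interaction count of 551 became 155, 155 and 245 to 994 under those settings, and the O2 count in shCHD4 cells, 2903, became 1920, 1815 and 1326 to 3468. On recovered reads edgeR and DESeq2 called 4490 and 3347 genes for O2 in shSC cells, 2959 and 1977 in shCHD4 cells, 9570 and 8833 between labels at 20% O2, 9861 and 9072 at 1% O2, and 563 and 386 for the interaction. The replicate block left the counts of these genes at 8, 9, 8, 8 and 2 and ended the O2 calls of ATF4 (adjusted p = 0.0598 in shCHD4 cells and 0.0646 in shSC cells). Same-numbered libraries deviated with correlations from -0.246 to 0.215. With 2 libraries per group these correlations cannot show whether libraries with the same number shared a preparation. Values that turned sign after centring on neighbours were PSPH for O2 in shSC cells (-0.064), MTHFD1 between labels at 20% O2 (0.043) and in the interaction (-0.12), MTHFD2L for O2 in shCHD4 (-0.034) and shSC cells (0.036) and in the interaction (-0.070), ATF4 in the interaction (-0.040), NDRG1 between labels at 20% O2 (0.46, against -0.54), AHCY between labels at 1% (-0.048) and 20% O2 (-0.036), and PRPS1 at 1% (0.25) and 20% O2 (0.16). Quantile normalisation turned MTHFD1 between labels at 1% (0.094) and 20% O2 (0.096) and in the interaction (-0.0017), SHMT1 in the interaction (-0.0045) and MTHFD2L for O2 in shCHD4 cells (-0.012), and DESeq2 turned MTHFD1 in the interaction (-0.0014). Leaving out libraries gave ranges through 0 for PSPH for O2 in shSC cells (-0.012 to 0.086), MTHFD2L for O2 in shCHD4 (-0.041 to 0.074) and shSC cells (-0.066 to 0.044), CHD4 for O2 in shCHD4 cells (-0.059 to 0.00086) and between labels at 20% O2 (-0.025 to 0.029), and MTHFD1 between labels at 1% (-0.049 to 0.0056) and 20% O2 (-0.065 to 0.010). In the interaction such ranges were -0.077 to 0.10 for SHMT1, -0.032 to 0.043 for MTHFD1, -0.010 to 0.082 for MTHFD2, -0.030 to 0.085 for MTHFD2L, -0.26 to 0.0039 for ALDH1L1 and -0.022 to 0.044 for ATF4. Counts of list genes that moved by over 1.5 times without a library are given beside those counts, and with no variance trend they were 1 for folate, 3 for serine use, 0 for methionine and 4 for asparagine for O2 in shCHD4 cells, and 3 for serine use, 2 for methionine, 4 for asparagine and 6 for the ATF4 list in shSC cells. The causes were not tested. With 2 libraries per group, a group left with 1 library is assumed to vary like the others.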
